A study of Mus musculus with 6 samples.

Results

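Tbl1xr1 encodes TBLR1, a WD40-repeat protein found in NCoR corepressor complexes. It was examined with 7 other genes for subunits of histone deacetylase corepressors, namely Tbl1x, Ncor1, Hdac3, Gps2, Sap25, Hmg20b and Cdk2ap1. The 8 genes were taken by symbol from a table of 10539 protein-coding genes, and 8 of 8 passed the minimum of a mean of 1 FPKM that left 9617 genes for testing. FPKM, the unit of every level given here, counts sequenced fragments relative to gene length and to the library's mapped total. The RNA came from lung alveolar macrophages of C57BL/6 mice, the resident phagocytes of the airspace. In every library the cells overexpressed CEBPβ, a transcription factor of myeloid cells. The 3 libraries called CEBPβ had no further treatment named in the labels, and the 3 called CEBPβ-A came from such cells that had received A20-Ad, an adenovirus for A20, the ubiquitin-editing brake on NF-κB signalling that is encoded by Tnfaip3. The labels do not say which virus the CEBPβ cells received, how CEBPβ was raised, how old the mice were or whether replicates were separate animals or cultures. The spread between libraries may thus be technical, and p-values measure only that spread.

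Corepressors silence genes by bringing histone deacetylases to DNA-bound factors. In the NCoR complex, the scaffold protein NCoR1 binds unliganded nuclear receptors and other factors and activates the deacetylase HDAC3. The related proteins TBLR1 and TBL1X hold the complex on chromatin and, when a gene is switched on, help to exchange corepressor for coactivator by way of ubiquitin enzymes. GPS2 completes the core. In macrophages these complexes keep inflammatory genes and targets of the lipid receptors LXR and PPARγ low at rest. SIN3, LSD1 with CoREST, and NuRD are separate deacetylase complexes that share HDAC1 and HDAC2.

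Of the 8 genes, 4 were chosen by their values in the very comparison made here. Tbl1xr1 was 1 of the 5 genes past a limma adjusted p of 0.05 (0.052% of those tested), of which 3 were lower in CEBPβ-A (0.0312%), and Sap25, Hmg20b and Cdk2ap1 were among those with the smallest p of genes that were higher in CEBPβ-A and did not pass. Tbl1xr1 was past that threshold without CEBPβ-A replicate 3 but not with any of the other 5 libraries left out. It was also not past it with the replicate number as a block, after quantile normalization or with a trend of fold change with transcript length removed. The differences of these 4 genes are therefore given as descriptions with no test. Tbl1x, Ncor1, Hdac3 and Gps2 were picked as partners of TBLR1 and were tested with limma, with p adjusted over all 9617 genes.

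Tbl1xr1 and Tbl1x are paralogs, so how far reads can tell them apart was examined first. Their coding sequences (the longest coding transcripts in GENCODE M21, with 1542 coding bases for Tbl1xr1 and 1581 for Tbl1x) were identical at 1193 of 1539 aligned bases, or 77.5%. Of the 346 differing bases 278 lay at the third codon position, and the longest identical run was 20 bases. A stretch of 90 coding bases, from base 32 to base 121 of each, is shown because it holds 20 differences, the median of all such stretches without a gap (13 to 27), with the differing bases in capitals.
Tbl1xr1: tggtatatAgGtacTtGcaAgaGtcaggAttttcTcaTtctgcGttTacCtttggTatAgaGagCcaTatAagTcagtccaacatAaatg
Tbl1x: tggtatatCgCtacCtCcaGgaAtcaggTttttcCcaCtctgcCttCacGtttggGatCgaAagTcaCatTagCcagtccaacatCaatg
None of the 9107 distinct 50-base words in Tbl1xr1 transcripts occurred in a Tbl1x transcript (0 shared), and 18 occurred in any other gene. A read of that length can thus be placed on one of the paralogs. The 8 coding transcripts of Tbl1xr1 ran from 354 to 8237 bases, so its FPKM also depends on the length that was used to scale it, which is not given in the sources used here.

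Tbl1xr1 (ENSMUSG00000027630.13, GRCm38 chromosome 3, 22076652 to 22216594, plus strand) stood at 8.41, 6.91 and 6.96 FPKM in CEBPβ replicates 1, 2 and 3. In CEBPβ-A replicates 1, 2 and 3 it stood at 2.25, 2.19 and 3.08 FPKM. The groups did not overlap, and the highest CEBPβ-A library lay well under the lowest CEBPβ library. The mean was 7.43 ± 0.854 FPKM in CEBPβ and 2.51 ± 0.499 in CEBPβ-A (SD, n = 3 each), so the CEBPβ mean was 2.96-fold higher. On the log2(FPKM + 1) scale, which understates changes of low genes, the fold change was −1.27 (SE 0.13).

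**Figure D1:**
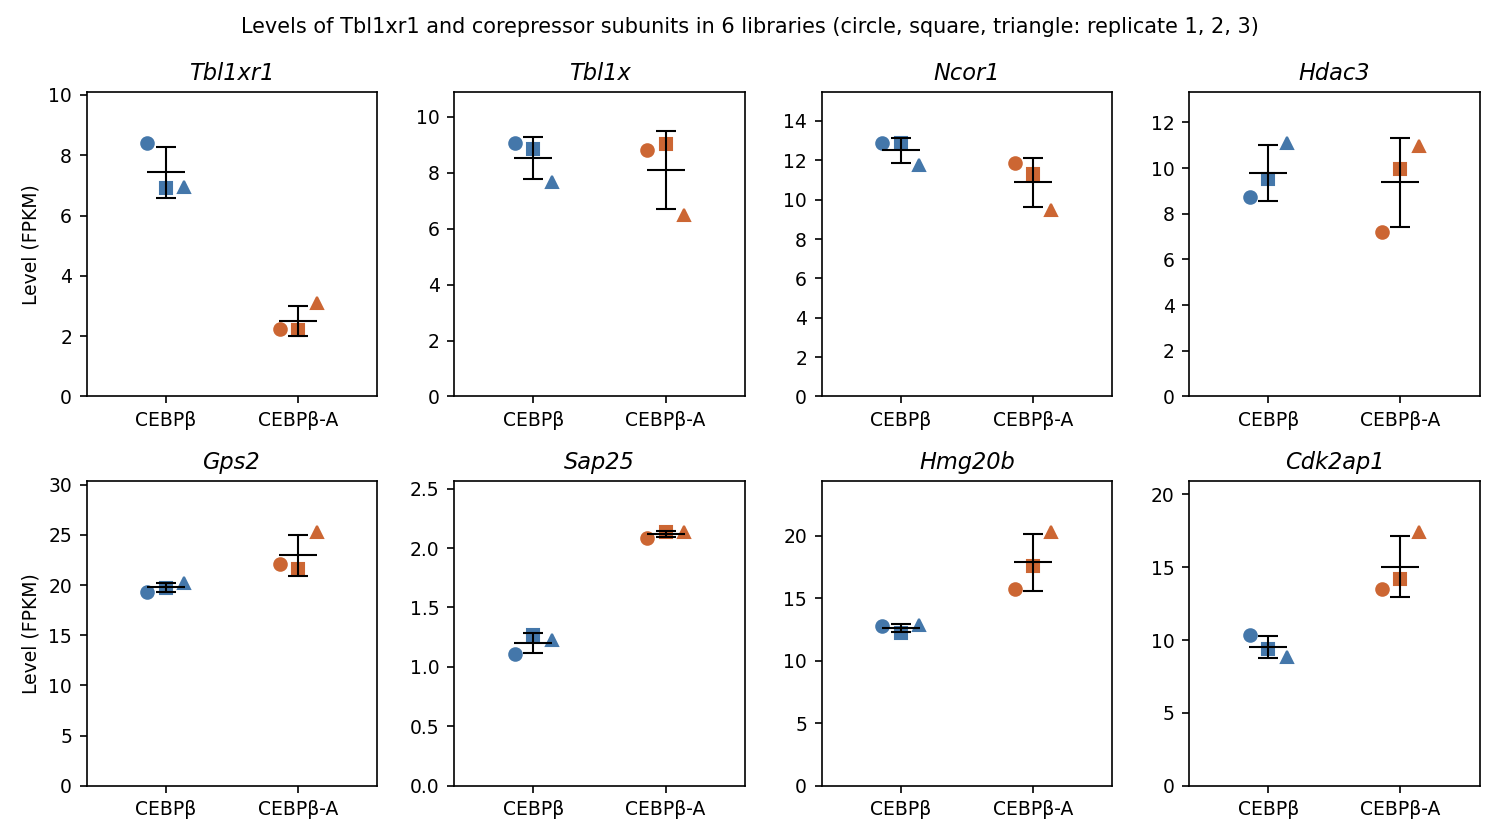
Level in FPKM of each of the 8 genes (y axis, starting at 0) in the 3 CEBPβ libraries (blue) and the 3 CEBPβ-A libraries (orange), with replicates 1, 2 and 3 as circle, square and triangle and bars for the mean ± SD. Tbl1xr1 lies between 6.91 and 8.41 FPKM in CEBPβ and between 2.19 and 3.08 in CEBPβ-A, while Tbl1x, Ncor1 and Hdac3 overlap between the groups.

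Its paralog Tbl1x did not show this difference. Tbl1x (ENSMUSG00000025246.13, chromosome X, 77511013 to 77662983) stood at 9.08, 8.87 and 7.67 FPKM in CEBPβ replicates 1, 2 and 3. It stood at 8.80, 9.04 and 6.51 FPKM in CEBPβ-A replicates 1, 2 and 3. The third library of each group was the lowest of its group, and the groups overlapped. The log2 fold change was −0.075, with a 95% interval of −0.38 to 0.23 (limma adjusted p = 0.849). The change of sign of this small difference without CEBPβ-A replicate 3 (0.059) leaves no direction to report.

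The 2 paralogs therefore made up different shares of their summed level, and this description rests on the difference that picked Tbl1xr1. Tbl1xr1 gave 48.1%, 43.8% and 47.6% of the sum in CEBPβ replicates 1, 2 and 3. In CEBPβ-A replicates 1, 2 and 3 it gave 20.3%, 19.5% and 32.1%. The sum itself was 16.0 ± 1.44 FPKM in CEBPβ and 10.6 ± 0.899 in CEBPβ-A (SD, n = 3 each). CEBPβ-A replicate 3 had the highest share and the lowest Tbl1x level of its group.

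**Figure D2:**
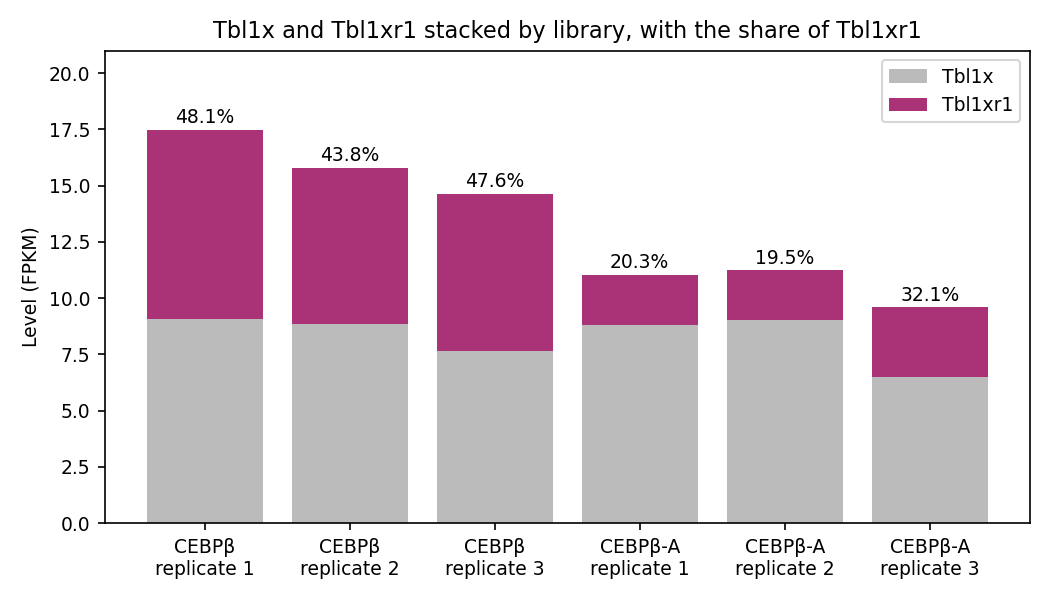
Stacked bars of Tbl1x (grey) and Tbl1xr1 (purple) in FPKM for each library, from 0, with the percentage of the sum that is Tbl1xr1 above each bar. The purple part is 43.8% to 48.1% of the bar in CEBPβ and 19.5% to 32.1% in CEBPβ-A, over grey parts of 6.51 to 9.08 FPKM.

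Ncor1, the scaffold that binds TBLR1, HDAC3 and GPS2, was slightly lower in CEBPβ-A without passing the test. Ncor1 (ENSMUSG00000018501.17, chromosome 11, 62316426 to 62458541) stood at 12.9, 12.9 and 11.8 FPKM in CEBPβ replicates 1, 2 and 3. It stood at 11.9, 11.3 and 9.46 FPKM in CEBPβ-A replicates 1, 2 and 3. The highest CEBPβ-A library lay just above the lowest CEBPβ library, so the groups overlapped. The log2 fold change was −0.19 (95% interval −0.42 to 0.043, limma adjusted p = 0.589). The ends of Ncor1 overlap the opposite-strand genes Ttc19 and Pigl, and whether counting used the strand is not stated. The sign of the Ncor1 difference was the same in 16 of 17 alternatives, with −0.25 to −0.10 when single libraries were left out. After a trend of fold change with transcript length was taken out the log2 fold change was 0.0040, so the sign depended on this setting.

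Hdac3, the deacetylase of the complex (ENSMUSG00000024454.15), stood at 8.72, 9.51 and 11.1 FPKM in CEBPβ replicates 1, 2 and 3. In CEBPβ-A replicates 1, 2 and 3 it stood at 7.21, 9.97 and 11.0 FPKM. Libraries of one group differed by more than the group means did, and the groups overlapped, with CEBPβ-A replicate 1 below every CEBPβ library. The log2 fold change was −0.066 (95% interval −0.42 to 0.29, limma adjusted p = 0.888), and it was 0.094 without CEBPβ-A replicate 1 and 0.021 without CEBPβ replicate 3.

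Gps2, which also restrains the ubiquitin-conjugating enzyme Ube2n, was the most abundant member per length. Gps2 (ENSMUSG00000023170.14, chromosome 11, 69913888 to 69916591) stood at 19.3, 19.7 and 20.2 FPKM in CEBPβ replicates 1, 2 and 3. It stood at 22.0, 21.6 and 25.3 FPKM in CEBPβ-A replicates 1, 2 and 3. The 3 CEBPβ-A libraries lay above the 3 CEBPβ libraries, in the opposite direction to Tbl1xr1. Over all genes tested the groups did not overlap for 16.8%, of which 7.89% were higher and 8.86% lower in CEBPβ-A. The log2 fold change was 0.20 (95% interval 0.011 to 0.40) and did not pass (limma adjusted p = 0.588). With the length trend removed it was 0.10, and 0.14 without CEBPβ-A replicate 3.

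The last subunit of this list, Coro2a, an actin-binding partner of NCoR, stood at 9.16 ± 0.322 FPKM in CEBPβ and 8.83 ± 0.495 in CEBPβ-A (SD, n = 3 each; log2 fold change −0.049, limma adjusted p = 0.835). Of the 5 NCoR subunits described other than Tbl1xr1, 0 passed the limma threshold, and 1, Gps2, had an unadjusted p under 0.05. Over all genes tested 0.052% passed, and 3.76% were higher and 4.42% lower at that unadjusted p. With so small a share passing, a count of 0 does not set these subunits apart from other genes. Their median log2 fold change was −0.066, beside −0.013 over all 9617 genes. The 95% intervals of Tbl1x, Ncor1, Hdac3 and Gps2 did not reach the −1.27 of Tbl1xr1. That value belongs to a gene picked for its difference, so this is a description and no test of a shared change.

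By level, these NCoR subunits in CEBPβ ran from Gps2 at 19.8 ± 0.459 FPKM through Ncor1 at 12.5 ± 0.636 to Hdac3 at 9.78 ± 1.22 (SD, n = 3 each). Coro2a at 9.16 ± 0.322, Tbl1x at 8.54 ± 0.759 and Tbl1xr1 at 7.43 ± 0.854 FPKM followed. The order of Hdac3 and Coro2a changed between CEBPβ libraries, as did that of Coro2a and Tbl1x. The ranges of Tbl1x and Tbl1xr1 overlapped, but Tbl1x lay above Tbl1xr1 in each CEBPβ library. In CEBPβ-A, Tbl1xr1 remained the lowest, at 2.51 FPKM, with Tbl1x next at 8.12 ± 1.40.

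Sap25, Hmg20b and Cdk2ap1 belong to other complexes and were higher in CEBPβ-A, the direction for which they were picked. Sap25, a SIN3-associated protein (ENSMUSG00000079165.10, chromosome 5, 137641334 to 137642902), stood at 1.11, 1.27 and 1.23 FPKM in CEBPβ replicates 1, 2 and 3. In CEBPβ-A replicates 1, 2 and 3 it stood at 2.09, 2.13 and 2.14 FPKM. These are low levels, above those of 7.82% of tested genes, and the ratio of the means was 1.76 (log2 fold change 0.50, SE 0.083). Sap25 overlaps the same-strand gene Gm20605, and 65.9% of the 50-base words of its transcripts also occur in Gm20605 transcripts, so its level is uncertain. Gm20605 itself stood at 8.44 ± 0.726 FPKM in CEBPβ and 8.47 ± 0.519 in CEBPβ-A (SD, n = 3 each).

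Hmg20b, also known as BRAF35, is a DNA-binding subunit of the LSD1 and CoREST complex (ENSMUSG00000020232.17, chromosome 10, 81346048 to 81350480). It stood at 12.7, 12.3 and 12.9 FPKM in CEBPβ replicates 1, 2 and 3. It stood at 15.7, 17.6 and 20.3 FPKM in CEBPβ-A replicates 1, 2 and 3. The CEBPβ libraries were close together and those of CEBPβ-A spread widely above them, with replicate 3 highest (ratio of means 1.42, log2 fold change 0.46, SE 0.10). None of its 3443 words of 50 bases occurred in another gene.

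Cdk2ap1, a small NuRD subunit first known as a partner of CDK2 (ENSMUSG00000029394.11, chromosome 5, 124345417 to 124363082), stood at 10.3, 9.36 and 8.83 FPKM in CEBPβ replicates 1, 2 and 3. In CEBPβ-A replicates 1, 2 and 3 it stood at 13.5, 14.2 and 17.4 FPKM. The groups did not overlap, and CEBPβ-A replicate 3 was again the highest (ratio of means 1.58, log2 fold change 0.61, SE 0.11). Of its 50-base words 55.7% also occur in the pseudogene Gm12184, so reads could be split between these copies, and its level is uncertain to that extent. Across the 6 libraries Sap25, Hmg20b and Cdk2ap1 ran opposite to Tbl1xr1 (Pearson r of −0.98, −0.83 and −0.83 over 6 libraries, a description that the choice of genes fixes).

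No listed subunit of their complexes was past the limma threshold, which 0.052% of all genes tested passed. At an unadjusted p under 0.05, 3.76% of all genes were higher and 4.42% lower. Of the 18 other SIN3 subunits tested 0 passed the limma threshold and 0 had an unadjusted p under 0.05, with a median log2 fold change of 0.028. The named ones were Sap18 (0.18, limma adjusted p = 0.600), Arid4a, a chromatin reader (−0.16, 0.589), and Sap30, the most abundant at 53.2 ± 5.57 FPKM in CEBPβ and 49.8 ± 2.25 in CEBPβ-A (−0.090, 0.715). Of the 8 other LSD1 and CoREST subunits described 0 passed the limma threshold, 7 had negative and 1 positive log2 fold changes, and the median was −0.082. Over all 9617 genes tested 5137 were negative and 4480 positive. With the length trend removed 4 were negative and 4 positive (median 0.0100), and the median was −0.033 without CEBPβ-A replicate 3 and −0.025 without CEBPβ replicate 2. The demethylase of the complex, Kdm1a, stood at 7.44 ± 0.301 FPKM in CEBPβ and 7.37 ± 0.129 in CEBPβ-A. Gse1 had the only unadjusted p under 0.05 among them, at 7.10 ± 1.10 against 5.10 ± 0.147 FPKM (log2 fold change −0.40, limma adjusted p = 0.588).

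Of the 13 other NuRD subunits tested 0 passed the limma threshold and 0 had an unadjusted p under 0.05, with a median of 0.033. The named ones were the chromatin remodeller Chd4, the most abundant at 51.6 ± 4.41 FPKM in CEBPβ (log2 fold change −0.14, limma adjusted p = 0.596), and Gatad2b, the lowest (−0.56, 0.591). Gatad2b stood at 4.60, 1.35 and 4.43 FPKM in CEBPβ-A replicates 1, 2 and 3 against 5.13 ± 0.576 in CEBPβ (SD, n = 3), and without CEBPβ-A replicate 2 its log2 fold change was −0.15. Hdac1 and Hdac2, the deacetylases common to the 3 complexes, had log2 fold changes of 0.033 and −0.105 (limma adjusted p = 0.888 and 0.699). The 7 listed genes of the CtBP and Groucho families lay between Ctbp2 at −0.083 and Ctbp1 at 0.066 (log2 fold changes). Tle3 had −0.031, and Tle5, the most abundant of the list, had 0.049. Of these 0 passed the limma threshold and 0 had an unadjusted p under 0.05. Over all genes tested 0.052% passed, and 3.76% were higher and 4.42% lower at that unadjusted p.

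**Figure D3:**
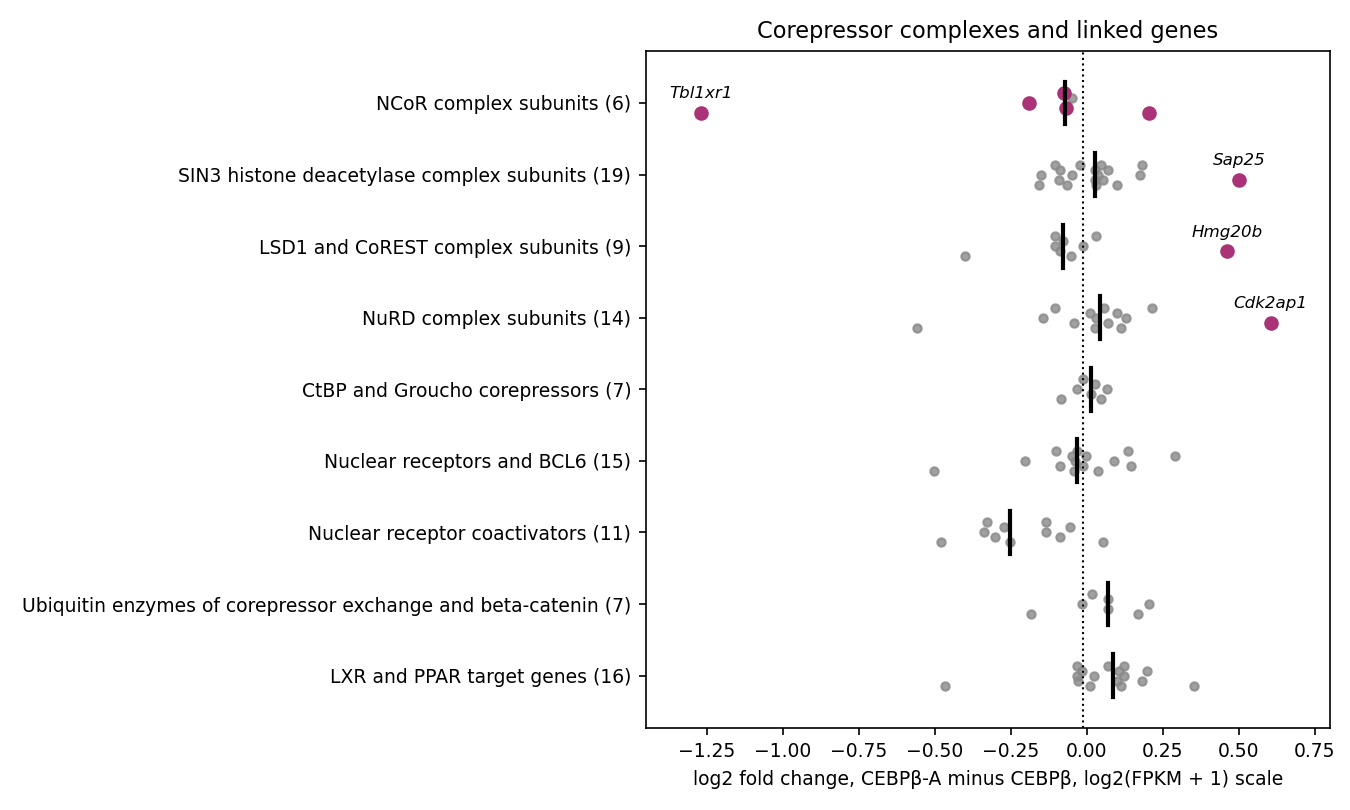
Log2 fold change, CEBPβ-A minus CEBPβ on the log2(FPKM + 1) scale (x axis), of each tested gene of 9 lists (rows, number of genes in brackets). Purple points are the 8 genes of the report, grey points the other list genes, black bars list medians and the dotted line the median of all tested genes. Tbl1xr1 at −1.27 and Cdk2ap1 at 0.61 lie at the ends, with most other subunits near 0.

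Genes that work with the complexes were compared in the same way. Over the 9 lists, 98 distinct genes were tested. Other than Tbl1xr1, 0 of them passed the limma threshold, and 7 higher and 4 lower genes had an unadjusted p under 0.05, with Tbl1xr1 and the 3 genes picked for their small p among these. Of all tested genes 0.052% passed the threshold, and 3.76% were higher and 4.42% lower at that unadjusted level. At any p 4480 had positive and 5137 negative log2 fold changes. The groups did not overlap for 11 higher and 4 lower list genes, with the same 4 picked genes among these, beside 7.89% higher and 8.86% lower of all genes tested.

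Among nuclear receptors and BCL6 (15 tested, median −0.031, 0 passed, 1 higher and 1 lower at an unadjusted p under 0.05), Nr2f6 stood at 13.9 ± 0.376 FPKM in CEBPβ and 17.3 ± 1.56 in CEBPβ-A (SD, n = 3 each; log2 fold change 0.29, limma adjusted p = 0.588). The glucocorticoid receptor Nr3c1, at 21.7 ± 3.50 against 15.1 ± 3.22 FPKM, had a log2 fold change of −0.50 (limma adjusted p = 0.588). Pparg, the receptor that directs alveolar macrophage identity, was the most abundant, at 37.8 ± 0.682 and 41.6 ± 1.29 FPKM (0.14, limma adjusted p = 0.588). Of LXR and PPAR targets (16 tested, median 0.086, 11 positive, 0 passed, 2 higher and 1 lower at an unadjusted p under 0.05), Plin2, which coats lipid droplets, had 0.20, the lipase inhibitor Angptl4 0.35 and the cholesterol exporter Abca1 −0.47, each with a limma adjusted p of 0.588. Without CEBPβ-A replicate 3 Angptl4 had 0.17 and Abca1 −0.24, and the median of the list was 0.035. Cd36, a scavenger receptor and the most abundant, stood at 546 ± 71.4 FPKM in CEBPβ and 538 ± 24.9 in CEBPβ-A.

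The coactivators that replace corepressors at active genes (11 tested, 0 passed, 0 at an unadjusted p under 0.05, 10 negative) had a median log2 fold change of −0.25. The named ones were Ncoa2 (−0.48, limma adjusted p = 0.596), Med1 (−0.34, 0.588) and the acetyltransferase Ep300 (−0.33, 0.589). These are long transcripts, with a median of 7329 bases. With the length trend removed the median of the list was −0.098, and 9 of 11 were negative, beside 4697 of 9570 over all genes. Without CEBPβ-A replicate 3 it was −0.061, and 7 of 11 were negative, beside 4800 of 9650. Ncoa2 had −0.12 and Ep300 −0.13 without that library. How far length enters these differences was not tested. Among the ubiquitin enzymes of corepressor exchange and β-catenin (7 tested, median 0.071, 0 passed, 0 at an unadjusted p under 0.05), the ligase Siah1a had −0.18, the conjugating enzymes Ube2d3 0.21 and Ube2n 0.17, and Ctnnb1, β-catenin, stood at 178 ± 5.56 and 181 ± 7.39 FPKM.

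Transcript length moved with the fold changes. Across 9570 genes with a known length, longer transcripts had lower fold changes (Spearman rho −0.55 as a description, genes not being independent replicates), and less so without CEBPβ-A replicate 3 (−0.33). Tbl1xr1, with a longest coding transcript of 8237 bases, lies among the 957 longest when genes were split by length into 10 equal bins, and the median log2 fold change of that bin was −0.19. In that bin 1 gene had a lower value than Tbl1xr1, a rank that the choice of this gene largely fixes. Ncor1, of 9037 bases, lay at the median of the bin. With the length trend removed Tbl1xr1 had −1.09. Sap25, Hmg20b and Cdk2ap1 are short, at 1101, 1621 and 1315 bases, in bins with medians of 0.14, 0.097 and 0.097, and had 0.38, 0.39 and 0.51 with the trend removed. In that fit Tbl1xr1 was no longer past the limma threshold, and how far length enters the differences of these 4 genes was not tested.

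**Figure D4:**
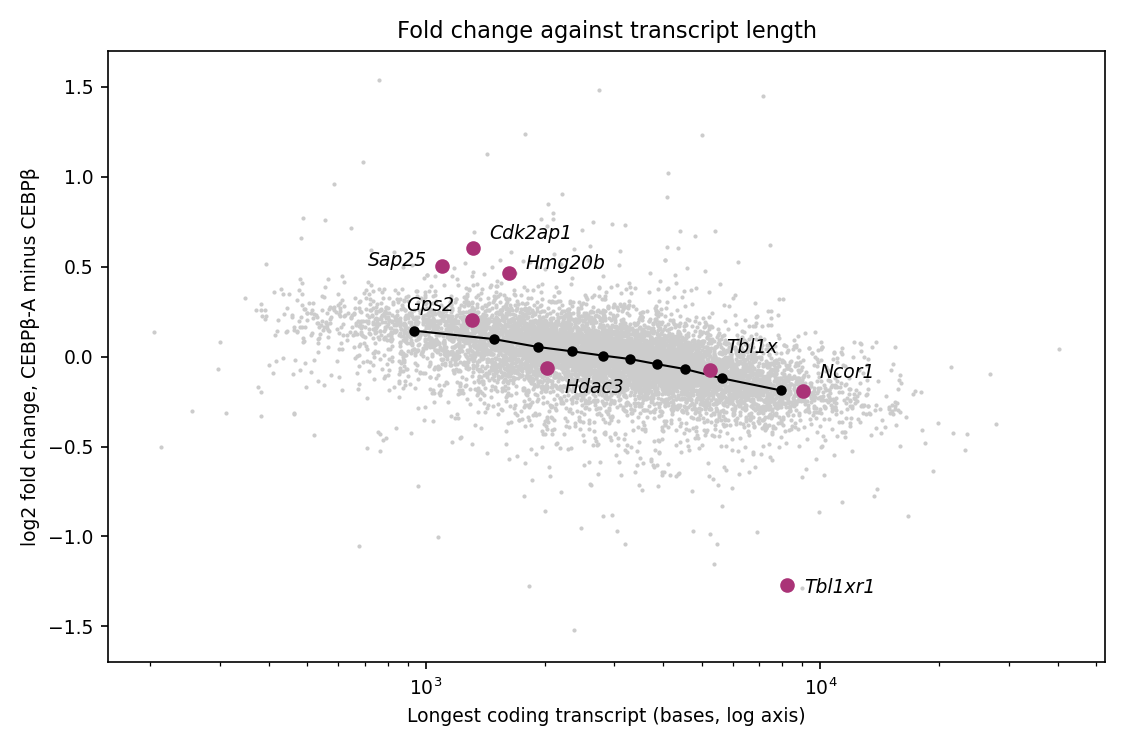
Log2 fold change, CEBPβ-A minus CEBPβ (y axis), against the longest coding transcript in bases (x axis, log scale) for tested genes (grey; 1 gene lies outside the plotted range), with the median of each of 10 equal bins by length (black) and the 8 genes of the report (purple). The black line falls from 0.14 to −0.19, and Tbl1xr1, which was picked for its difference, lies far below it.

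The genes whose pattern over the 6 libraries was most like that of Tbl1xr1, by Pearson correlation of log2(FPKM + 1), were Ttc39c (r = 0.99), the nucleolar protein Esf1 (0.99), the secreted glycoprotein Fstl1 (0.98), the cochaperone Hsph1 (0.98) and Tmem39b (0.98). Fstl1 stood at 10.2 ± 0.364 FPKM in CEBPβ and 7.08 ± 0.294 in CEBPβ-A, and the other 4 differed less. The gap between the groups enters each correlation. For partners in the complex, which were not picked by correlation, r was 0.58 for Ncor1, 0.22 for Hdac3, 0.11 for Tbl1x and −0.72 for Gps2. Within 2 Mb of Tbl1xr1 on chromosome 3 the table lists Gyg and Hltf, with log2 fold changes of −0.088 and −0.11 (limma adjusted p = 0.859 and 0.748) and overlapping groups.

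The 250 bases before the RefSeq start site of Tbl1xr1 (GRCm38.p6, chr3:22076402-22076651, plus strand) are shown because this gene had the largest difference of the 8. Capitals mark 2 overlapping matches to GGGNNNNNCC, a loose form of the NF-κB motif, searched on both strands.
Tbl1xr1: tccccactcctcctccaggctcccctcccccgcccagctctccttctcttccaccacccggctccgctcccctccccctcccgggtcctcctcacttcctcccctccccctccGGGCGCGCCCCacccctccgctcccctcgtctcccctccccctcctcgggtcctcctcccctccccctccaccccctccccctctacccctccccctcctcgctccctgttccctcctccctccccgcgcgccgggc
The stretch is 76% G and C, beside a median of 52.4% over all promoters. A match to GGGNNNNNCC occurs in 45.8% of all 32851 promoters of this length, which were not matched for G and C. It occurs in 4 of the 10 listed for 7 of the members, or for 4 of the 7 by gene, as Hmg20b has overlapping ones. TTNNGNAA, a loose C/EBP motif also searched on both strands, occurs in 36.9% of all and in 2 of the 10, or for 2 of the 7 members. The Tbl1xr1 stretch holds none of the latter, and Cdk2ap1 holds matches to both. A match describes letters only.

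Facts of the whole data set bear on these values. Tnfaip3 stood at 8.76, 17.7 and 19.2 FPKM in CEBPβ replicates 1, 2 and 3 and at 7.94, 15.5 and 7.32 in CEBPβ-A replicates 1, 2 and 3, so this check of the labels saw no rise of the mouse gene after A20-Ad, and each direction here is between libraries as labelled. Cebpb stood at 429 ± 66.6 and 411 ± 70.5 FPKM. CEBPβ-A replicate 3 lay apart on the first principal component (44.3% of the variance), and without it the log2 fold change of Tbl1xr1 was −1.38, that of Sap25 0.50, of Hmg20b 0.37 and of Cdk2ap1 0.50. The 11 alveolar macrophage markers summed to between 27119 and 38614 FPKM per library. Of the markers of other cells, 3 of 9 epithelial ones (Scgb1a1, Krt8 and Cdh1) summed to 29.1 to 39.3 FPKM in CEBPβ and 33.3 to 67.1 in CEBPβ-A, 3 of 7 neutrophil ones (S100a8, Csf3r and Cxcr2) to 213.6 to 263 and 298 to 317, and 1 of 5 T cell ones (Cd2) to 15.7 to 18.2 and 18.3 to 23.1. The remaining markers were not analysed here. The part of other cells in the differences was not tested, and in bulk RNA fewer cells of a type and less RNA per cell cannot be told apart. Sequencing depth is unknown, so no counting interval is given.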

How the data were processed

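RNA sequencing was done on 6 libraries, 3 per group, from stranded KAPA libraries, per the labels' protocols. The authors deposited FPKM values, per the file headers. The submitters' processing notes name build GRCm38. Not given in the sources used here are the aligner, the FPKM program, the annotation release and how shared reads were divided. Low genes with 1 transcript showed no whole-read steps (highest periodicity 0.154 to 0.197, where 1 is whole reads), so depth is unknown. Library sums ran from 278907 to 313215 FPKM.

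Genes with a mean of at least 1 FPKM were put on the log2(FPKM + 1) scale and compared with limma (version 3.58.1, R 4.3.3; intensity trend, no covariate, two-sided, Benjamini-Hochberg adjusted over all genes tested, threshold 0.05), which was tested on simulated data. Fold changes are CEBPβ-A minus CEBPβ. The members and lists were chosen with earlier results of these data known, and lists are described by counts and medians. Some subunits are not reported here and are outside the lists. Named genes are the 8 members, the NCoR list, in each other list the 3 with the smallest p and the most abundant, any list gene past the threshold, the 5 most like Tbl1xr1 by Pearson correlation (leaving out Gm and Rik symbols), Tnfaip3 and Cebpb. Kdm1a, Gm20605 and Hdac1 were named beyond that rule, as were Gyg and Hltf. Lengths, words of 50 bases and overlaps come from GENCODE M21, in which 9603 of 10539 loci are the same, and promoters from RefSeq (GRCm38.p6). Alternatives were other pseudocounts, filters and scalings, the variance prior, a replicate block, removal of the length trend by loess and each library left out.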

Additional observations from a re-analysis of the deposited data

How the results depend on the processing

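Over 17 alternatives the log2 fold changes of Hmg20b, Cdk2ap1 and Gps2 ran from 0.37 to 0.55, 0.50 to 0.67 and 0.10 to 0.25. Their groups did not overlap, so leaving out a library or changing the pseudocount could not reverse the direction. The filters, the intensity trend, the prior and the block leave these fold changes as they were. Hmg20b and Cdk2ap1 were also picked for this direction. The count of 5 genes past the limma threshold became 0 with a mean of at least 5 FPKM (a filter that left out Tbl1xr1 and Sap25), 2 after quantile normalization, 1 with the replicate block, 8 with the length trend removed, and 3, 4 and 2 without CEBPβ replicates 1, 2 and 3 and 1, 3 and 9 without CEBPβ-A replicates 1, 2 and 3. Tbl1xr1 was among them in 8 of the 16 alternatives that tested it. The main call picked this gene, so the count is no further support for it. Tbl1xr1 was not past the threshold after quantile normalization, with the block or with the length trend removed. It was also not past it with any library other than CEBPβ-A replicate 3 left out. Its log2 fold change was −1.54 with a pseudocount of 0.1 and −1.09 with the length trend removed, and −1.38 to −1.19 with single libraries left out. Sap25 had 0.77 and 0.62 with pseudocounts of 0.1 and 0.5, 0.56 after quantile normalization and 0.38 with the length trend removed. With the length trend removed the sign changed for Tbl1x (0.028), Ncor1 (0.0040) and the medians of the NCoR list (0.0068) and of the LSD1 and CoREST list without Hmg20b (0.0100). With single libraries left out Tbl1x ran from −0.15 to 0.059 and Hdac3 from −0.18 to 0.094. The causes were not tested. The count of 0 other list genes past the threshold was also 0 without CEBPβ-A replicate 3 and with the length trend removed, checks chosen after seeing the data, as were those of the medians of the LSD1 and CoREST, coactivator and LXR and PPAR target lists and of the named list genes other than members with a log2 fold change beyond 0.25 in either direction.

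Replicate numbers are shared by the groups. Deviations of same-numbered libraries correlated at 0.099, 0.25 and 0.26, and each library was most like its own number, a hint from the data only. The replicate block changed no call for Tbl1x, Ncor1, Hdac3 or Gps2 (lowest limma adjusted p 0.372). Without depth, precision rests on 3 libraries per group.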
